A study of Mus musculus with 2 samples.

Results

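The genes described here are 9 members of the interleukin-1 (IL-1) family of cytokines and receptors. They are the ligands Il1a, Il1b, Il18 and Il33, the antagonist Il1rn, the decoy Il18bp, and the receptor genes Il1r1, Il1r2 and Il1rap. Members were taken as the non-control array probes whose accession belongs to 1 of these symbols, which gave 10 probes of 39429 on the array and 9 of 20655 named genes. RNA of RAW246.1 cells, a mouse line that the labels describe as macrophages, was measured on 1 Agilent array per group. The control culture received PBS as a mock treatment. The other received synthetic miR-122, a microRNA made mainly in liver, at a stated 5 μg/mL. No strain, genotype or treatment time is given in the labels, and both cultures were grown in DMEM. The title of that sample contains the word without before miR-122, and 1 treatment text serves both samples, so its group was taken from the source name and description. Directions rest on that label. The series asks how miR-122 affects inflammatory activation of macrophages, and these arrays bear on it only through a cell line.

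IL-1α and IL-1β act through the receptor IL-1R1, which pairs with the accessory protein encoded by Il1rap to start MyD88 and NF-κB signalling. The antagonist encoded by Il1rn occupies that receptor without signalling, and Il1r2 encodes a decoy receptor. IL-18 has its own receptor pair and is neutralised by the soluble protein encoded by Il18bp, while IL-33 acts through ST2, the product of Il1rl1, together with the accessory protein of Il1rap. IL-1β and IL-18 are made as precursors that caspase-1 cleaves, and gasdermin D pores let them out of the cell. In macrophages the family is best known for fever, recruitment of leukocytes and interferon gamma production by lymphocytes. The arrays measure RNA only and say nothing of cleavage or secretion.

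The start regions are shown of the 5 members with the largest positive differences among the 6 well above background on both arrays, because these genes were higher together. Each run is the 250 bases before the RefSeq start, 5′ to 3′ on the gene's strand, in build GRCm38.p6. Capitals mark matches to any of 6 motifs searched on both strands.
Il18bp (chr7:102018233-102018482, minus strand): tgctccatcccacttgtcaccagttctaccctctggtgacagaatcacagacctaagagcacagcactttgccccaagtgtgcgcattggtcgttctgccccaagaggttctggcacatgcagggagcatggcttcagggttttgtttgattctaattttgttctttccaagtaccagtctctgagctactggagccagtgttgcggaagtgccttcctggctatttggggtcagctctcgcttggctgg
Il18 (chr9:50554450-50554699, plus strand): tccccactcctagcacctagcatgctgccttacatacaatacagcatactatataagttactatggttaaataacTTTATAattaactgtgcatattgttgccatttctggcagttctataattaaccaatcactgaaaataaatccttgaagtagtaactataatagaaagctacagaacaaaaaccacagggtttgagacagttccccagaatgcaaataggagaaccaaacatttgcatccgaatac
Il1rn (chr2:24336610-24336859, plus strand): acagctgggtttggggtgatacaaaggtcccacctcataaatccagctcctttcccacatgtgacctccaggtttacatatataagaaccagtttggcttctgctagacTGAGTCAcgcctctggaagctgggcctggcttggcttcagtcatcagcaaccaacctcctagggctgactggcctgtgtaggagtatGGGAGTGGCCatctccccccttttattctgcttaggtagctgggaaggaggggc
Il1a (chr2:129309973-129310222, minus strand): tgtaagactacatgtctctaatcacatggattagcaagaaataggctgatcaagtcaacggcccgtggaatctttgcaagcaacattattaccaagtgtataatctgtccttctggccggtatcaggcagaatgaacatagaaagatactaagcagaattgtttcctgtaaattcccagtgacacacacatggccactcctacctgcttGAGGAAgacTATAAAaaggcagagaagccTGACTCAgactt
Il1b (chr2:129371140-129371389, minus strand): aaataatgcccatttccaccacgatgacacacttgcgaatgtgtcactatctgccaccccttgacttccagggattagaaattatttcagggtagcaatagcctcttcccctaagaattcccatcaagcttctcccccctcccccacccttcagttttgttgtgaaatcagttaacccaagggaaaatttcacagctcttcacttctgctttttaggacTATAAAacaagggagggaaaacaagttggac
The motifs were GGGA and CC with any 4 bases between for NF-κB, GAAA and GAAA with any 2 bases between for the interferon-stimulated response element, TGANTCA for AP-1, TATAAA for the TATA box, TTCNNNGAA for STAT proteins and GAGGAA for PU.1, and no match overlapped another. Il1a and Il1b, neighbouring genes on chromosome 2, each held TATAAA close to the start, beginning 32 and 31 bases before it. Il1a also held GAGGAA, 41 bases before the start, and TGACTCA, 12 bases before it. The Il1rn window shown is 1 of 3 RefSeq start windows of this gene, and it held TGAGTCA and GGGAGTGGCC. Il18 held TATAAA only on the opposite strand, printed as TTTATA, and Il18bp held none of the 6. Over 32851 mouse start windows of this length, 17.6% held the NF-κB letters, 2.98% the interferon element, 6.75% AP-1, 12.4% TATAAA, 7.02% STAT and 23.3% PU.1. In the 13 windows of the 9 members, TATAAA was found for Il18, Il1a, Il1b and Il33, and the NF-κB letters for Il1rn and Il1rap. The AP-1 letters were found for Il1a and Il1rn, STAT for Il1r2, PU.1 for Il1a, and the interferon element for 0 members. Some members have several windows, so shares of genes with a match in any window serve beside these. They were 14.3% for TATAAA, 19.7% for NF-κB, 7.82% for AP-1, 8.13% for STAT, 25.9% for PU.1 and 3.46% for the interferon element. Such matches describe letters and do not show binding.

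Each array had 1 culture behind it, so no difference below has a replicate check or a p-value, and none was tested. Differences are log2 values, miR-122 minus PBS, after each array's signal was set relative to its own 75th percentile. Signals in units are given before this scaling, and the log2 75th percentile differed by -0.28 (miR-122 minus PBS). A value called at least 2-fold passed a fixed size only. The error given with a signal is the estimate of the scanner software for that spot, which was never below 10% of the signal for probes well above background. Probes printed 10 times give a measured spread: for those over 1000 units, log2 signals had a median standard deviation (SD) of 0.04 on PBS and 0.05 on miR-122, and for those under 100 units 0.16 and 0.15. Of 39429 probes, 28302 passed the scanner software's flag for signals well above background on PBS and 27568 on miR-122, and 0 non-control spots were saturated. Both arrays came from 1 scan of 1 slide, at different positions, so position and treatment cannot be told apart.

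Macrophage markers were present on both arrays. All 8 of the 9 listed markers that have a matched probe were well above background (Cd68 had no matched probe), including Csf1r, the receptor gene for macrophage growth factor, at 46202 units on the PBS array and 22246 units on the miR-122 array. Their summed signal was 88454 and 59468 units, and 5 of the 8 had negative differences. Hepatocyte markers were at or near background, with Alb and Apoa1 well above it on neither array and a summed signal of 24.4 and 20.4 units. Some markers listed for other cell types were well above background, among them the T cell gene Cd4 at 788 and 676 units and the neutrophil gene Elane at 1532 and 1334 units. Summed signals on the PBS and miR-122 arrays were 1037 and 851 units for T cell markers, 2143 and 1975 for neutrophil, 517 and 477 for endothelial, 89.0 and 90.1 for mast cell, 68.1 and 70.5 for fibroblast, 59.6 and 50.1 for epithelial and 58.2 and 64.4 for B cell markers. These sums are before scaling and do not give the direction of a difference. After scaling, the median difference was -0.41 for macrophage and -0.16 for T cell markers. It was 0.43 for B cell, 0.39 for epithelial, 0.21 for neutrophil, 0.20 for mast cell, 0.19 for fibroblast and 0.10 for endothelial markers. Each of these medians rests on few genes. The part of the markers of other cell types in the results was not tested.

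Of the 9 members, 6 were well above background on both arrays, Il33 was so on the miR-122 array only, and Il1r1 and Il1r2 on neither. All 6 had positive differences under each of the 8 ways of processing tried, and 4 of them (Il18bp, Il18, Il1rn and Il1a) passed 2-fold upwards on miR-122. The background is 15023 genes measured on both arrays, of which 4.57% passed 2-fold upwards and 1.78% downwards, and 0 members passed it downwards. The median difference of the 6 members was 1.42, against 0.09 over all genes. The balance of all calls depends on the scaling, with 71.9% of the called genes higher here and 50.8% when arrays were scaled on their medians, 59.9% with quantile normalization and with the authors' values. In bulk RNA, fewer cells of a type and less RNA per cell cannot be told apart.

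**Figure D1:**
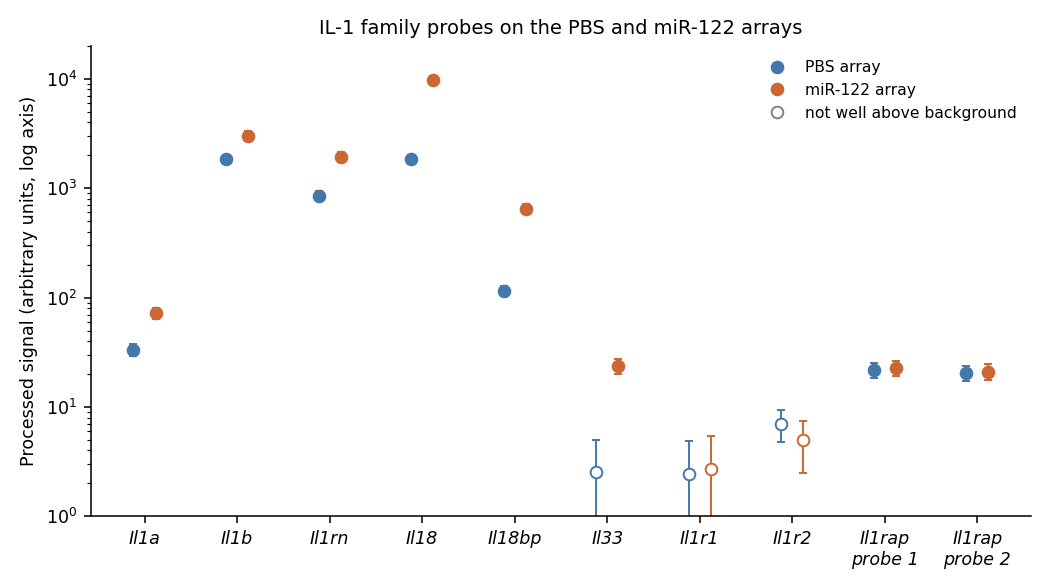
Processed signal of each member's probe in arbitrary units on a log axis, PBS array in blue and miR-122 array in orange. Bars are the error estimate of the scanner software, open circles are probes not well above background, and bars that reach the bottom run past the axis. The miR-122 point is above the PBS point by more than both bars for Il1a, Il1b, Il1rn, Il18, Il18bp and Il33, and the bars overlap for both Il1rap probes, Il1r1 and Il1r2. Heights are signals before scaling between the arrays, so the differences in the text, taken after scaling, cannot be read from them directly. They do not compare one gene with another.

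Among the 6 members well above background on both arrays, Il18bp and Il18 had the widest differences. Il18 encodes the cytokine IL-18, and its probe gave 1834 ± 183 units on the PBS array and 9749 ± 975 units on the miR-122 array (software error, 1 spot each). The ranges do not overlap, and Il18 was 6.44-fold higher, a log2 difference of 2.69 ± 0.20 by the software error. It ranked 52 of 15023 genes from the highest difference. Il18bp, whose product binds IL-18 and blocks it, had 115 ± 11.7 units on the PBS array and 651 ± 65.1 units on the miR-122 array. It was 6.85-fold higher, with a log2 difference of 2.78 ± 0.21 and rank 46. The ligand and its decoy stood 0.09 ± 0.29 apart in log2 difference, which is within the software error. Because both come from the same 2 arrays, any single scaling factor cancels in that comparison. The normexp background correction reduced the log2 difference of Il18bp to 2.22 and left that of Il18 at 2.58, so that Il18bp then stood 0.36 below Il18 (-0.36).

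Of the IL-18 receptor genes, only Il18rap was measured well above background. Il18rap, the accessory chain of the receptor, was at 45.4 ± 5.17 units on the PBS array and 24.3 ± 3.60 units on the miR-122 array. Its log2 difference was -0.62 ± 0.27, 1.54-fold lower, but it was -0.05 with normexp, and both signals are within the range where repeated spots vary most. Both probes of Il18r1, the ligand-binding chain, were not well above background on either array, at 2.61 and 11.1 units on the PBS array and 2.45 and 9.96 units on the miR-122 array.

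Il1b, the gene of IL-1β, is the only member printed 10 times, which gives its signal a measured spread. On the PBS array its 9 spots in use ranged from 1771 to 1902 units with a median of 1812. On the miR-122 array the 9 spots ranged from 2879 to 3147 units with a median of 3002. The means were 1834 ± 48.5 and 3005 ± 95.0 units (SD over 9 spots of 1 array), so the 2 sets of spots do not overlap. After scaling, Il1b was 1.98-fold higher, a log2 difference of 0.99 against SDs over spots of 0.04 and 0.05. This lies just under the 2-fold size, and it stayed under it in all 8 ways of processing, between 0.81 and 0.99. Spots of 1 array share their RNA and do not stand for separate cultures.

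**Figure D2:**
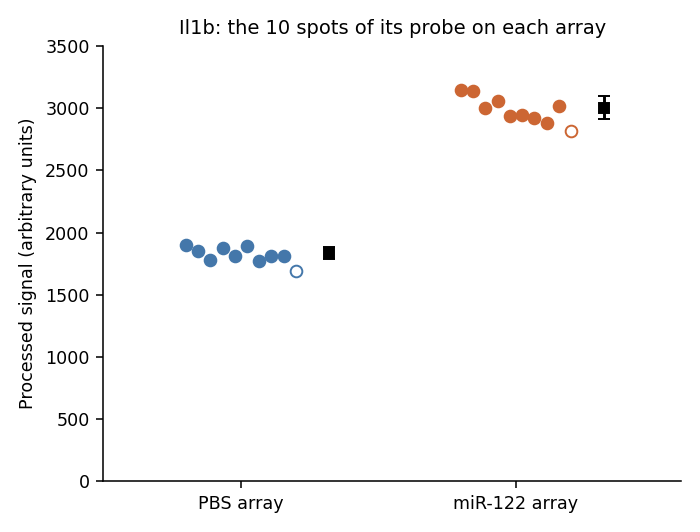
Processed signal in arbitrary units of the 10 spots of the Il1b probe on each array. Filled circles were used, open circles were left out as outliers by the scanner software, and black squares with bars are the mean and SD of the 9 used spots. All 10 spots of the miR-122 array lie above all 10 of the PBS array.

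Il1a encodes IL-1α, the ligand that is active without caspase-1, and its gene lies next to Il1b. Its probe was dim, at 33.5 ± 4.0 units on the PBS array and 72.0 ± 7.61 units on the miR-122 array. The signal was higher on the miR-122 array by more than both errors, and Il1a was 2.61-fold higher with a log2 difference of 1.38 ± 0.23. The call depended on the background correction, since normexp gave 1.65-fold. The difference of Il1a exceeded that of Il1b by 0.39 ± 0.31, and with normexp it was below it (-0.19), so these data do not order the 2 ligands.

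Il1rn encodes the receptor antagonist that competes with both IL-1 ligands. Its probe had 854 ± 85.4 units on the PBS array and 1948 ± 195 units on the miR-122 array. Il1rn was 2.76-fold higher, with a log2 difference of 1.47 ± 0.20 that ranged from 1.29 to 1.47 over the ways of processing. Set against Il1b, the antagonist had the larger difference by 0.48 ± 0.29, and the authors' deposited values gave 0.50 and normexp 0.43. Set against Il18, Il1b had a smaller difference by 1.70 ± 0.29 (Il18 minus Il1b), close to the 1.67 found with normexp and the 1.66 found with the authors' values.

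**Figure D3:**
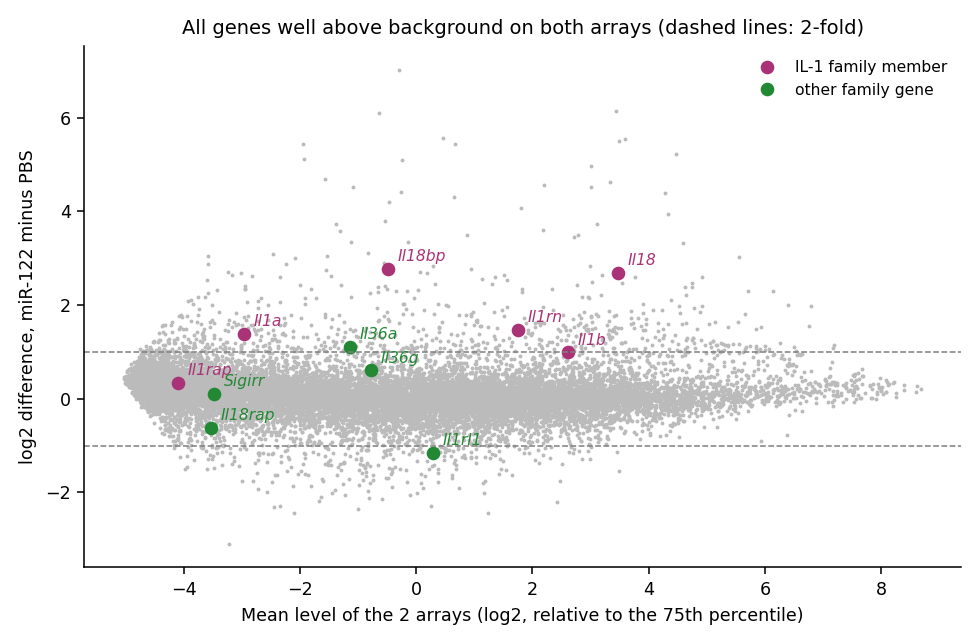
Log2 difference, miR-122 minus PBS, against the mean log2 level of both arrays for all 15023 genes well above background on both (grey). IL-1 family members are purple and other family genes green, and dashed lines mark 2-fold. Il18bp, Il18, Il1rn and Il1a lie above the upper line and Il1b just under it. Il1rap lies between the lines, towards the dim end of the cloud, and Il1rl1 lies below the lower line.

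Il33 encodes the alarmin IL-33, a nuclear cytokine mostly known from barrier tissues. Its probe had 2.51 ± 2.51 units on the PBS array, at background, and 23.7 ± 3.61 units on the miR-122 array, well above it. Only a bound can be given: set against the lowest PBS level well above background, Il33 was at least 2.66-fold higher. Genes seen on 1 array only are picked in part for being higher there, but they need not differ. Of 468 genes well above background on the miR-122 array alone, 24.6% passed 2-fold by this bound. In the other direction, 3.77% of 742 genes well above background on the PBS array alone were at least 2-fold lower by the matching bound. That bound uses the lowest miR-122 level well above background, a scaled log2 level of -4.85 against -5.29 on PBS. A call downwards therefore needed more, and the shares do not compare directly. The Il33 signal lies under 100 units, where repeated spots varied most.

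The receptor members were low on both arrays. Il1r1, which encodes the signalling receptor for IL-1α and IL-1β, had 2.46 ± 2.45 units on the PBS array and 2.72 ± 2.71 units on the miR-122 array. Il1r2, the decoy receptor, had 7.04 ± 2.31 and 4.95 ± 2.48 units. Neither was well above background, so no fold is given, and a low level cannot be told from none with these probes. Il1rap, the accessory chain, was well above background with both of its probes, at 21.9 ± 3.33 and 20.4 ± 3.20 units on the PBS array and at 22.8 ± 3.56 and 21.1 ± 3.58 units on the miR-122 array. The probes gave log2 differences of 0.33 ± 0.31 and 0.32 ± 0.33, about the size of the software error, and other scalings gave values down to 0.09. Genes as dim as Il1rap, in the same of 10 equal bins of level, had a median difference of 0.23.

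**Figure D4:**
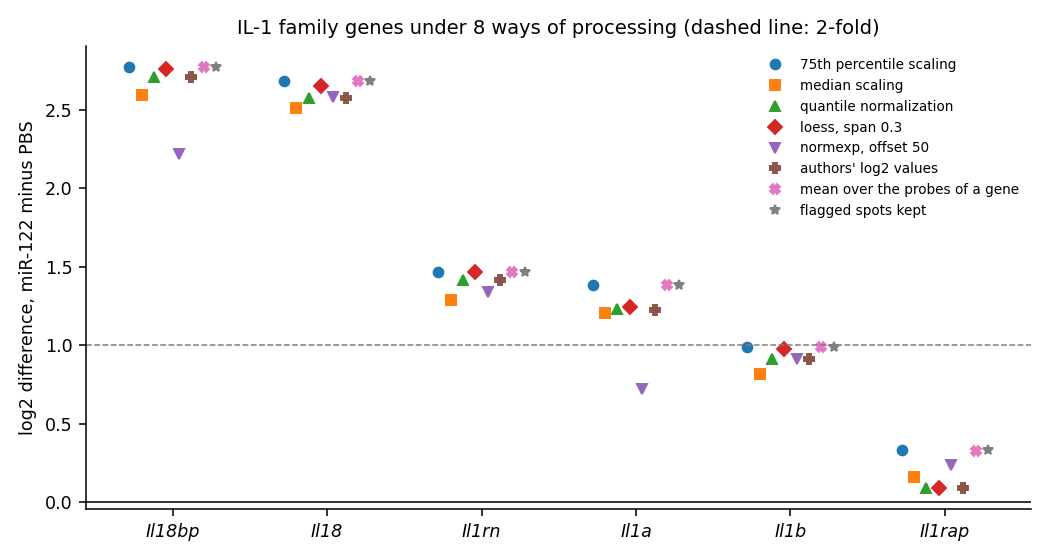
Log2 difference, miR-122 minus PBS, of the 6 members well above background on both arrays under 8 ways of processing (symbols), with the dashed line at 2-fold. Il18bp, Il18 and Il1rn stay above the line throughout, Il1a falls below it with normexp, Il1b stays under it, and Il1rap lies between 0.09 and 0.33.

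Among 12 other genes of the family, 5 were well above background on both arrays. Past 2-fold, 1 of these was higher and 1 lower, against shares of 4.57% and 1.78% over all genes. Their median difference was 0.10, a sign that turned with every other scaling and with the authors' values but not with normexp. Il1rl1, the ST2 receptor gene, had 766 ± 76.6 units on the PBS array and 283 ± 28.4 units on the miR-122 array with its bright probe. The miR-122 signal is lower by far more than the error, and Il1rl1 was 2.23-fold lower, with log2 differences between -1.33 and -1.04 over the ways of processing. A second probe with the same accession had 10.7 and 3.99 units and the probe for another transcript 2.18 and 2.48 units, all not well above background. What the bright probe detects that the others do not was not tested. Il36a, the ligand IL-36α, had 130 ± 13.2 and 233 ± 23.4 units, or 2.16-fold more signal on miR-122 after scaling, which became 1.92-fold with median scaling and 1.73-fold with normexp. Il36g, the ligand IL-36γ, had 199 ± 20.0 and 250 ± 25.2 units and a log2 difference of 0.61 ± 0.21. Sigirr, an inhibitory receptor of the family, had 36.5 ± 4.51 and 32.3 ± 4.31 units and a log2 difference of 0.10 ± 0.26. Il36rn, the IL-36 antagonist, was well above background on the miR-122 array only, at 15.9 ± 3.13 against 10.7 ± 2.67 units, and the bound was 1.79-fold higher. Il36b, Il1f10, Il1rl2, Il1rapl1 and Il1rapl2 were not well above background, with all signals between 2.48 and 11.2 units.

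In RefSeq annotation, Il1r2, Il1r1, Il1rl2, Il1rl1, Il18r1 and Il18rap follow one another on mouse chromosome 1 with no other protein-coding gene between them. In that cluster only Il1rl1 and Il18rap were well above background, and both had negative differences. Il18rap was dim, however, and its difference was -0.05 with normexp. The genes Il36b, Il36g, Il36a, Il36rn, Il1f10 and Il1rn form a similar run on chromosome 2. Of these, Il36a, Il36g and Il1rn were well above background on both arrays and had positive differences. Over all 15023 genes, 9056 differences were positive and 5967 negative.

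The genes that carry the IL-1 and IL-18 receptor signal were mostly close to the median of all genes. Of 23 listed genes, 21 were well above background on both arrays. Past 2-fold, 2 of them were higher and 0 lower, beside the 4.57% and 1.78% of all genes. Their median difference was 0.17, which was -0.01 with median scaling. Peli1, a ubiquitin ligase that acts with IRAK kinases, had 659 ± 66.0 units on the PBS array and 2765 ± 277 units on the miR-122 array. It was 5.08-fold higher, and 4.5-fold at the lowest over the ways of processing. Myd88, the adaptor that the receptors recruit, is printed 10 times and had mean signals of 1299 and 2289 units. It was 2.13-fold higher with SDs over spots of 0.04 and 0.03 on the log2 scale, but 1.89-fold with median scaling. Peli3, Irak2, Tollip and Ikbkg came next, with log2 differences of 0.53, 0.49, 0.36 and 0.35. Peli3 was dim, at 22.5 units on the PBS array and 26.7 units on the miR-122 array. Its difference was 0.29 with quantile normalization and 0.28 with normexp, below the 0.41 and 0.45 of Irak2. The other genes of the list lay between -0.15 and 0.29, among them Traf6 at 0.29 and Irak4 at 0.05. Peli2 and Map2k6 were not well above background.

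Genes that process the precursors or let the cytokines out were also close to the overall median, apart from a few. Of 24 listed genes, 23 were well above background on both arrays. Past 2-fold, 4 of them were higher and 0 lower, where all genes had 4.57% and 1.78%. The median difference was 0.17, or -0.01 with median scaling. Casp4, the inflammatory caspase that mouse work calls caspase-11, was 3.69-fold higher by its brighter probe and 4.11-fold by the other. The brighter probe had 2840 units on the PBS array and 8647 units on the miR-122 array. Casp1, the protease that cleaves both IL-1β and IL-18, had 6361 and 11838 units. It was 2.25-fold higher, but its log2 difference was 0.997 after scaling on medians and 0.99 after quantile normalization or in the authors' values, just below that size. Gsdmd, the pore-forming gasdermin D, is printed 10 times and had means of 1111 and 1949 units. It was 2.13-fold higher, and 1.88-fold with median scaling and 1.98-fold with normexp. Capn1, a calpain of the protease family that cleaves the IL-1α precursor, was dim at 42.6 and 83.7 units and 2.38-fold higher, or 1.63-fold with normexp. Casp8, Nlrp3 and Ctss had log2 differences of 0.94, 0.65 and 0.59, and Nlrc4 had -0.61. Nlrc4 was dim, at 53.4 units on the PBS array and 28.8 units on the miR-122 array, and its difference was -0.06 with normexp. Pycard, the inflammasome adaptor, differed by 0.17, and Gzmb was not well above background.

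**Figure D5:**
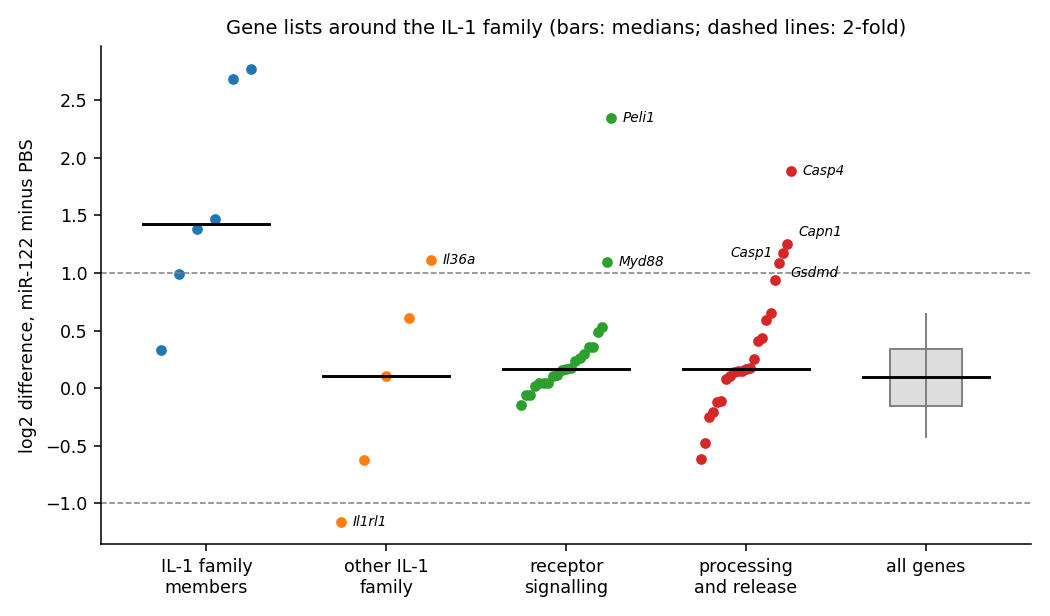
Log2 difference, miR-122 minus PBS, of genes well above background on both arrays in 4 lists, each point 1 gene and each black bar a median, with all genes as a box from the 25th to the 75th percentile and a line from the 10th to the 90th. Dashed lines mark 2-fold. The members have a median of 1.42, while the medians of the other 3 lists lie between 0.10 and 0.17, beside 0.09 for all genes.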

How the data were processed

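Total RNA was labelled with Cy3 and hybridised to 1-colour arrays, per the labels' protocols. The deposited intensities of each spot come from version 11.0.1.1 of Agilent Feature Extraction (per the file headers) and are background-subtracted and detrended within an array and not normalized between arrays. The authors' deposited table holds log2 values, and the sources used here do not say how they were normalized. With them 528 genes were at least 2-fold higher and 354 lower, against 529 and 354 with quantile normalization. The differences of the members were also nearly equal in these 2 settings, which are therefore not separate checks. The column medians of the authors' table are both 5.16. Over all probes each column had a correlation of 0.997 with its own array's log2 signal and 0.985 with that of the other array. The table's scale is therefore log2 and its columns run as labelled.

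Control spots (1377 of 44397) and spots flagged as outliers (145 and 196) were left out. Processed signals were converted to log2, averaged over the spots of a probe, and set relative to the 75th percentile of each array. Accessions were matched without versions to RefSeq symbols of GRCm38.p6, used for names, gene order and start windows, and 27228 of 39429 probes matched. The array design names an older build, so no other coordinates are given. The brightest probe of a gene that was well above background on both arrays stood for it. For a gene seen on 1 array, the bound sets the bright array against the dim array's own value or, where higher, its lowest detected level. No test was run, since 1 array per group allows none. Normexp used median spot intensities, with an offset of 50. The number of arrays limits the precision.

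The members, lists and tests were chosen with earlier results of these data known. The naming rule took all members, all other family genes, and in each pathway list the genes past 2-fold and the next 4 by absolute difference; Traf6, Irak4 and Pycard, outside the rule, were named after their values were seen. Software was R 4.3.3, limma 3.58.1, Python 3.11.15, numpy 2.4.6 and pandas 2.3.3.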

Additional observations from a re-analysis of the deposited data

How the results depend on the processing

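No paired analysis was possible because each group has 1 array. The alternatives were median scaling, quantile normalization, loess with a span of 0.3, normexp, the authors' log2 values, the mean over a gene's probes, outlier spots kept, no filter on dim probes, a signal of at least 50 on both arrays and a 1.5-fold size. The count of members at least 2-fold higher was 4, between 3 and 5 over these alternatives. With normexp the log2 difference of Il1a was 0.72, that of Il18bp 2.22 and the median of the members 1.13. With normexp 389 of all genes were at least 2-fold higher and 142 lower, against 687 and 268. Without the filter the counts were 1358 and 451, at 1.5-fold 1816 and 900, and with median scaling 456 genes were lower. Median scaling moved the median of all genes by -0.18 and quantile normalization by -0.12. With median scaling 1 receptor signalling gene, 2 processing and release genes and 0 other family genes were at least 2-fold higher, and with normexp 2 and 0 of the latter lists. The causes were not tested. Dim signals limit what can be said of Il1a, Il33, Il1r1, Il1r2 and Il1rap, and the spread between cultures is unknown.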

Other observations

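The same spot of the Il1b probe was the lowest of its 10 spots on both arrays, at 1689 units on the PBS array and 2815 units on the miR-122 array, and the scanner software left it out on both. Keeping it left the log2 difference of Il1b at 0.99.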
